A study of Mus musculus with 4 samples.

Results

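The 50 genes described here are the protein-coding mouse genes whose symbols begin with Psma to Psmg and a number, out of 21764 protein-coding genes and 50600 genes listed in the count tables. They cover the core subunits, the regulatory cap, the activators and most dedicated assembly factors of the proteasome. They also include Psmc3ip, which meets the symbol rule but encodes a recombination protein and no proteasome subunit. For short, all 50 are called proteasome genes below. The data are RNA-seq gene counts of 4 libraries of T-helper 2 (Th2) cells, the helper subset of CD4 T cells that drives responses to parasites and allergens. The cells were primary cells of mouse strain C57BL/6NJ, differentiated from CD4 T cells by the protocol the labels link, with no other genotype or treatment in the labels, age unknown and sex not collected. The file headers name all 4 as the 16 h point of a Th1 and Th2 time course, of which the other points are not analysed here. The assay is labelled total RNA-seq, while the linked library protocol is named for polyA+ RNA. All 4 are separate biological replicates of 1 group by their labels but carry a single donor identifier, so that p-values cover only how far these samples differ, possibly for technical reasons alone.

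Library totals ran from 1688658 to 2222583 counts, so that a count of 0 allows up to 1.35 CPM (counts scaled to library size) in the deepest library and 1.78 CPM in the shallowest, with 3 counts as the limit and for counting error only. Read pairs were counted on 1 strand only, with strand option 1 in the file headers. The mitochondrial gene mt-Nd6, the mitochondrial mRNA encoded on the other strand from the rest, held 87.2 to 92.0% of mitochondrial mRNA counts, and genes with an exon opposite an exon of another gene held 84.3 to 88.9% of protein-coding counts. Whether the counted strand is that of the transcripts was not tested, so every level below is a level on the counted strand. All 10 T cell markers had counts in all 4 libraries, while 2 of 6 Th2 markers, the cytokine genes Il5 and Il13, had none. An exon lay opposite 2 of the 10 T cell and 3 of the 6 Th2 markers, the highest of each list among them. Cd247 (167 ± 8.24 TPM, SD, n = 4) shares 3007 exonic bases with Pou2f1, and Ptgdr2 (57.3 ± 9.10 TPM, SD, n = 4) shares 1031 with Ccdc86. Of the CD8 and cytotoxic list 4 of 5 markers were at 0 in every library (summed level 1.73 to 6.44 TPM), and of the B cell list 3 of 4 (4.82 to 9.53 TPM). The markers above 0 had no exon opposite, Cd8b1 with 3, 11, 5 and 10 counts and Cd79a with 15, 16, 20 and 9 (8.09 ± 2.20 TPM, SD, n = 4). In the macrophage and dendritic list 3 of 6 markers had counts in all 4 libraries. Itgax and Lyz2 were at 0 and Flt3 had 1 count, while Cd68 with 3, 6, 12 and 9 counts and Cd74 with 6, 15, 18 and 9 had no exon opposite. The sum of 148 to 176 TPM lay mostly in Csf1r (155 ± 14.5 TPM, SD, n = 4), which shares 871 exonic bases with Hmgxb3. The part of such cells in the proteasome levels was not tested. In bulk RNA, fewer cells of a type and less RNA per cell cannot be told apart.

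The proteasome is the barrel-shaped protease that breaks down proteins tagged with ubiquitin. Its core is a stack of rings built from alpha subunits (Psma genes) and beta subunits (Psmb genes), of which Psmb5, Psmb6 and Psmb7 carry the active sites. Caps made of ATPases (Psmc genes) and non-ATPase subunits (Psmd genes) recognise, unfold and thread the substrate. In lymphocytes and in cells exposed to interferon gamma, Psmb8, Psmb9 and Psmb10 take the places of the constitutive catalytic subunits and form the immunoproteasome, which shapes the peptides shown on MHC class I. The transcription factor Nfe2l1 raises proteasome genes together when proteasome activity drops, through antioxidant response elements.

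Some of the sequence around these genes is printed here, and its part in their counts was not tested. Exons of Psme1 and Emc9 face each other over 14 bases only, and exons of Psmd3 and Gm12356 over 17 bases, read here from GENCODE release M21 transcripts of both strands and printed 5′ to 3′ on the strand of the proteasome gene, with all shared bases in capitals. The stretches are chr14:55581516-55581529 and chr11:98682921-98682937 (GRCm38, plus strand).
Psme1: TAGTTGCCCACCAG
Psmd3: CACTGTCACCTTAGAAG

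The core of the antioxidant response element, TGACNNNGC, was looked for on both strands in RefSeq promoter windows (GRCm38.p6) that run from 250 bases before to 50 after each gene's start. Of the 50 genes 42 had such a window. The motif was in 6 of these 42 (14.29%), against 13.99% of 27025 genes in the table, so that its share among proteasome genes was close to that among all genes. The 250 bases before the starts of Psmb5 and Psmb6, catalytic subunits that immunoproteasome subunits replace, show where it lies, with the motif in capitals, at chr14:54617996-54618245 (minus strand) and chr11:70525107-70525356 (plus strand).
Psmb5: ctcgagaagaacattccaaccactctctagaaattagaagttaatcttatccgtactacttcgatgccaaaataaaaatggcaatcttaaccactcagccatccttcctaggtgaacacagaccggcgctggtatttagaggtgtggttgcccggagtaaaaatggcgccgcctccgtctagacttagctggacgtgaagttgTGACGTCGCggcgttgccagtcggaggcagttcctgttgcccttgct
Psmb6: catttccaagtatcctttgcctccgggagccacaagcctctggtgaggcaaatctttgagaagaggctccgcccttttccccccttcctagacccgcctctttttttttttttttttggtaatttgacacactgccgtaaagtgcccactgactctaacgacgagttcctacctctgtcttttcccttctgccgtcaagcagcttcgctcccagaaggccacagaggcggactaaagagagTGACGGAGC

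The other matches, in Psmc6 (chr14:45329587-45329615), Psmd12 (chr11:107479278-107479299), Psmd9 (chr5:123228149-123228177) and Psme4 (chr11:30771758-30771786), all on plus-strand genes, are shown with up to 10 bases on each side. In Psmc6, Psmd12 and Psme4 the motif is on the other strand, so its reverse complement is in capitals. RefSeq starts need not be those of the counted gene models, and a match describes these letters only.
Psmc6: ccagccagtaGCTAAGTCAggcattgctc
Psmd12: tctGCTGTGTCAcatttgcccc
Psmd9: atctagccggTGACCCCGCccacttccaa
Psme4: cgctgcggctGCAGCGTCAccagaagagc

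Most proteasome genes had counts on the counted strand in every library, few each but at levels above the median protein-coding gene. Of the 50 genes, 44 (88.0%) had counts in all 4 libraries, against 39.0% of all protein-coding genes, and 2 had no count in any. Together they held 2205, 2032, 2152 and 2833 counts in replicates 1 to 4, or 0.0968 to 0.151% of a library. Of these counts 678, 616, 593 and 653 were of Psmc3ip, which is no proteasome subunit gene. Their median level was 5.74 ± 1.42 TPM (counts divided by gene length and scaled to a common library sum), while the median of all protein-coding genes was 0 in every library. Testis-specific Psma8, an alternative alpha subunit, and Psme2b, a single-exon gene similar to the activator gene Psme2, were the members at 0. This allows up to 1.54 and 3.11 TPM in the library where the limit in TPM is highest.

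**Figure D1:**
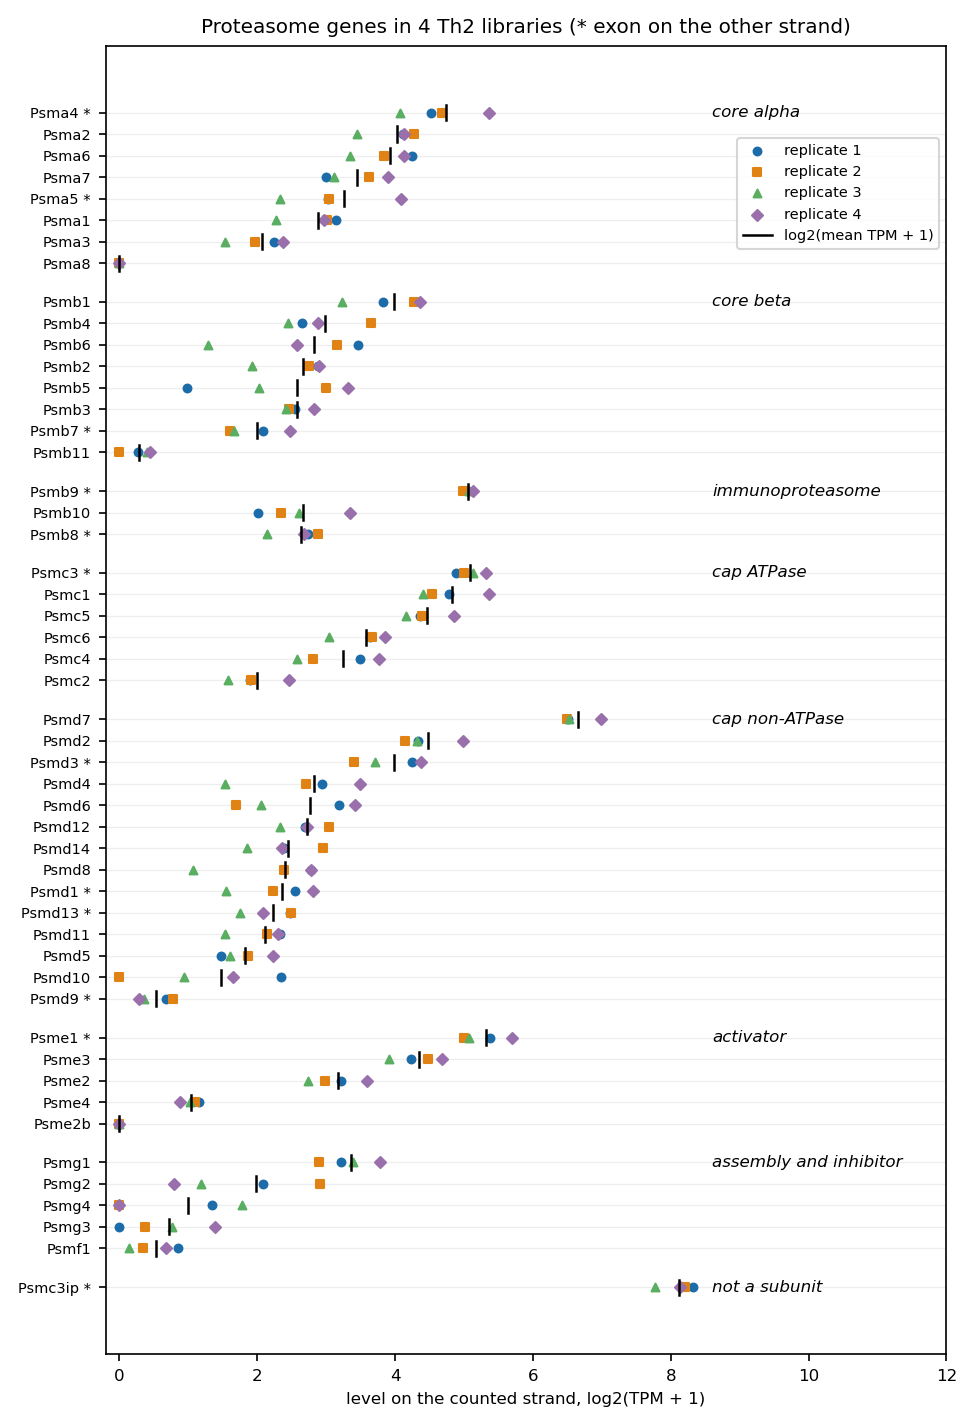
Level of each of the 50 proteasome genes on the counted strand (x axis, log2(TPM + 1)) in replicates 1 to 4 (points) with the log2 of the mean TPM + 1 (vertical bars), by class, where an asterisk marks genes with an exon on the other strand. Psmc3ip, which is no subunit gene (mean 278 TPM), and Psmd7 (mean 99.3 TPM) are the highest, and Psma8 and Psme2b are at 0.

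The 14 constitutive core genes, Psma1 to Psma7 and Psmb1 to Psmb7, make subunits that are used in equal numbers, and all 14 had counts in every library. Their levels on the counted strand were not equal, and whether these follow the amounts of transcript or subunit was not tested. Psma4 was the highest of the 14 in each library, and the ratio of the highest to the lowest was 22.4, 12.1, 11.1 and 9.55 in replicates 1 to 4. The lowest was a different gene in each, Psmb5, Psmb7, Psmb6 and Psma3, and it rested on 1, 8, 4 and 21 counts. Psma4 (chromosome 9, 54950790 to 54958030) had 61, 67, 56 and 122 counts, or 25.6 ± 10.3 TPM (SD, n = 4), and shares 114 exonic bases with AY074887. Replicate 4 was the highest and replicate 3 the lowest.

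Among core genes with no exon opposite, the highest were Psma2, Psmb1 and Psma6. Psma2 had 18, 20, 14 and 20 counts in replicates 1 to 4 (15.3 ± 3.70 TPM, SD, n = 4). Psmb1 had 16, 22, 13 and 26 counts (14.9 ± 5.14 TPM, SD, n = 4), and Psma6 had 26, 19, 17 and 26 (14.3 ± 3.88 TPM, SD, n = 4). All 3 were lowest in replicate 3 and their ranges overlapped, so their order is not resolved. The 11 core genes with no exon opposite ranged from 3.18 TPM for Psma3 to 15.3 TPM for Psma2. Psma5, which shares 60 bases with 1700010K24Rik, had 11, 11, 8 and 27 counts, again highest in replicate 4 (8.59 ± 5.12 TPM, SD, n = 4). Psmb11, the beta subunit of cortical thymic epithelium, had 1, 0, 2 and 2 counts, all under the limit of 3. Of the thymic epithelium markers Foxn1 had no count and Epcam had 1, in replicate 1, and of the testis markers Ddx4 had none while Sycp3, which shares 660 bases with Chpt1, was at 12.2 ± 3.79 TPM (SD, n = 4).

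Of the immunoproteasome genes, Psmb9 stood above the other pair in every library. Psmb9 (chromosome 17, 34181988 to 34187764) had 138, 130, 179 and 160 counts in replicates 1 to 4, or 32.5 ± 1.34 TPM (SD, n = 4), and its 5′ end shares 212 exonic bases with that of Tap1, the peptide transporter gene. Psmb8 (chromosome 17, 34197721 to 34201454) had 18, 20, 14 and 19 counts (5.20 ± 1.25 TPM, SD, n = 4). Psmb10 (chromosome 8, 105935735 to 105938444), with no exon opposite, had 6, 8, 13 and 20 counts (5.33 ± 2.68 TPM, SD, n = 4). The ranges of Psmb8 and Psmb10 overlapped, and neither reached the lowest Psmb9 value.

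Each immunoproteasome gene was set against the constitutive gene whose product it replaces. Psmb6, the constitutive counterpart of Psmb9, had 22, 17, 4 and 12 counts and no exon opposite (6.09 ± 3.74 TPM, SD, n = 4). Psmb9 exceeded Psmb6 in all 4 libraries, by 2.44 ± 0.99 on the log2(TPM + 1) scale (SD, n = 4). Over the pooled libraries 607 counts stood against 55, a ratio per kilobase of 5.65 (95% exact interval 4.28 to 7.58, counting error only). An exact sign-flip permutation test, two-sided, reached the smallest p that 4 libraries allow, 2 of 16 sign patterns, which is 0.375 after Benjamini-Hochberg adjustment over the 3 pairs. No pair could therefore pass 0.05.

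The difference between Psmb8 and Psmb5 depended on the scaling by length. Psmb5, the constitutive counterpart of Psmb8, had 1, 7, 4 and 10 counts (5.00 ± 3.62 TPM, SD, n = 4), and the difference of Psmb8 from Psmb5 was 0.28 ± 1.03 (SD, n = 4; exact two-sided p = 0.75), above 0 in 2 of 4 libraries. Without replicate 1, where Psmb5 had its single count, it was -0.21. The ratio per kilobase over pooled counts was 1.03 (95% exact interval 0.629 to 1.74). Without scaling by length, on log2(CPM + 1), the difference was 1.60 ± 0.89 (SD, n = 4), at the smallest p the exact test allows. Psmb7, the constitutive counterpart of Psmb10, had 13, 8, 11 and 20 counts (3.00 ± 1.18 TPM, SD, n = 4). Psmb10 was above Psmb7 in 3 of 4 libraries, by 0.62 ± 0.48 (SD, n = 4; exact two-sided p = 0.25). On log2(CPM + 1) this difference was -0.18. The 2 genes are not alike in their surroundings. Psmb7 shares 405 exonic bases with Nek6, while Psmb10 has no exon opposite but overlaps the body of antisense Gm16156 (404 ± 24.2 TPM, SD, n = 4). Nor are Psmb8 and Psmb5 alike. Psmb8 shares 186 exonic bases with Gm20496 (5057 ± 389 TPM, SD, n = 4), while Psmb5 has no exon opposite.

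**Figure D2:**
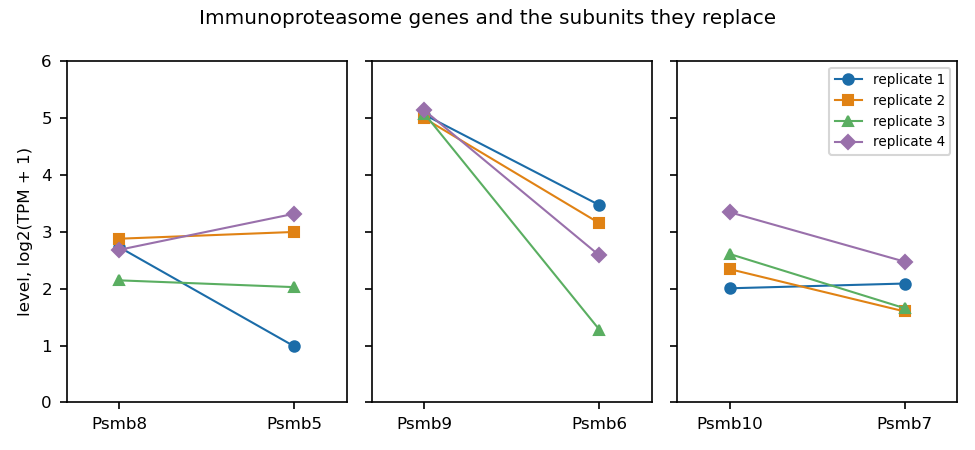
Level on the counted strand (y axis, log2(TPM + 1)) of each immunoproteasome gene and of the constitutive gene it replaces, where lines join the values of a library. All 4 lines fall between Psmb9 and Psmb6 (mean difference 2.44), while the lines between Psmb8 and Psmb5 run both ways.

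The ATPase genes of the cap had the highest class median among subunit genes, 16.03 ± 3.57 TPM (SD, n = 4), and all 6 had counts in every library. Psmc3, which shares 215 bases with the zinc transporter gene Slc39a13, had 87, 93, 133 and 130 counts in replicates 1 to 4 (33.1 ± 4.45 TPM, SD, n = 4). With no exon opposite, Psmc1 had 47, 39, 46 and 78 counts (27.3 ± 8.90 TPM, SD, n = 4) and Psmc5 had 32, 32, 35 and 50 (21.1 ± 4.80 TPM, SD, n = 4). Psmc6 had 21, 21, 17 and 27 counts (11.0 ± 2.62 TPM, SD, n = 4). Psmc4 averaged 8.47 TPM and Psmc2 2.99 TPM. In this order the ranges of Psmc3 and Psmc1, of Psmc1 and Psmc5, and of Psmc6 and Psmc4 overlapped, while Psmc5 lay above Psmc6 and Psmc4 above Psmc2 without overlap. These ATPases form a single ring in which each is present once, but levels on the counted strand are not amounts of subunit.

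The 14 Psmd genes had a class median of 4.39 ± 1.55 TPM (SD, n = 4), and they include the assembly factors Psmd5, Psmd9 and Psmd10 next to true cap subunits. Psmd7 (chromosome 8, 107580381 to 107588464), which encodes the inactive partner of the deubiquitinase Psmd14 in the lid, was far above the rest with 239, 233, 308 and 366 counts in replicates 1 to 4 (99.3 ± 17.9 TPM, SD, n = 4). No gene lay opposite it, the nearest on the other strand being Wwp2 at 21786 bases. By mean TPM it ranked 37 of the 16963 protein-coding genes with no exon opposite, while Psmc1 ranked 197 and Psmd2 263. Psmd14 itself had 14, 22, 11 and 15 counts (4.45 ± 1.72 TPM, SD, n = 4), and its range did not overlap that of Psmd7. Psmd2, a scaffold subunit of the cap base, had 90, 78, 114 and 159 counts (21.4 ± 6.31 TPM, SD, n = 4).

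Of the remaining Psmd genes, Psmd3, a lid subunit, had 104, 55, 90 and 126 counts (14.9 ± 4.79 TPM, SD, n = 4). Psmd4, a ubiquitin receptor, had 22, 18, 8 and 37 counts (6.11 ± 3.45 TPM, SD, n = 4), lowest in replicate 3 and highest in replicate 4. Psmd1, the other large scaffold of the base, had 41, 31, 21 and 56 counts (4.12 ± 1.74 TPM, SD, n = 4) and showed the same order of replicates 3 and 4. Psmd13, a lid subunit that shares 342 bases with Sirt3 at its 5′ end, had 18, 18, 12 and 14 counts (3.70 ± 1.09 TPM, SD, n = 4). The assembly factors were low, with Psmd5 at 2.53, Psmd10 at 1.78 and Psmd9 at 0.450 TPM on average. The other Psmd genes, Psmd6, Psmd8, Psmd11 and Psmd12, averaged between 3.31 TPM for Psmd11 and 5.81 TPM for Psmd6.

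The activators open the core without ATP. Psme1 and Psme2 make the interferon-inducible activator that works with the immunoproteasome. Psme1 (chromosome 14, 55578123 to 55581529) had 105, 79, 108 and 144 counts in replicates 1 to 4 (38.8 ± 9.05 TPM, SD, n = 4) and Psme2 had 17, 14, 15 and 25 (7.97 ± 2.30 TPM, SD, n = 4), so the pair did not overlap. Reads of Psme2 may be shared with Psme2b, which makes the Psme2 value uncertain. Psme3, the nuclear activator, had 61, 72, 62 and 93 counts (19.4 ± 4.52 TPM, SD, n = 4), and Psme4, an activator linked to histone turnover, had 12, 11, 13 and 9 (1.06 ± 0.167 TPM, SD, n = 4). The assembly chaperones of the core and the inhibitor Psmf1 were the lowest class, at a median of 0.962 ± 0.554 TPM (SD, n = 4). Only Psmg1 of these had 10 or more counts in every library, 13, 10, 19 and 22 (9.24 ± 2.65 TPM, SD, n = 4). Its dimer partner Psmg2 had 4, 8, 2 and 1 counts, Psmg4 had 1, 0, 2 and 0, and Psmg3 and Psmf1 averaged 0.653 and 0.444 TPM.

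An exon of another gene lay on the other strand for 12 of the 50 genes (24.0%), close to the 22.1% of all protein-coding genes. These 12 held 58.0, 55.8, 57.1 and 52.0% of the proteasome counts in replicates 1 to 4, a mean of 55.7 ± 2.64% (SD, n = 4), against 86.9 ± 1.92% for protein-coding genes with an exon opposite among all protein-coding counts. Psmc3ip alone had 678, 616, 593 and 653 counts (278 ± 43.0 TPM, SD, n = 4), and without it the share was 38.6%. The median of the 12 was 11.7 ± 4.56 TPM and that of the 38 genes with no exon opposite 5.37 ± 1.53 TPM (SD, n = 4), while the medians of all protein-coding genes with and without an exon opposite were 1.45 ± 0.217 and 0 TPM. The 2 ranges over libraries did not overlap, but the median of the genes with an opposite exon was 5.35 TPM when at least 100 shared bases were asked for, and 5.92 TPM for the other genes. Among genes with no exon opposite and counts in all 4 libraries, the median was 6.73 ± 1.98 TPM for 32 proteasome genes and 1.73 ± 0.352 TPM for 5355 protein-coding genes (SD, n = 4).

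Several genes opposite proteasome genes stood far above them. Of the 12 pairs, the partner was higher per length in every library in 6, the proteasome gene in 4 (Psmc3ip among them), and neither in 2. Gm20496, annotated as antisense, shares 186 bases with Psmb8 and further ones with Tap2, and reached 5057 ± 389 TPM with 4253, 3941, 4515 and 4266 counts, so that Psmb8 differed from it by -9.69 ± 0.23 on the log2(TPM + 1) scale (SD, n = 4). Nek6, a kinase gene, shares 405 of its 10714 exonic bases with the 3′ end of Psmb7 and had 4604, 4549, 5821 and 4763 counts (362 ± 10.3 TPM, SD, n = 4). The difference of Psmb7 from Nek6 was -6.55 ± 0.44 (SD, n = 4). Of the 6 proteasome genes opposite higher partners, Psmb8, Psmb7 and Psmd9 (0.450 TPM) lay below the proteasome median of 5.74 TPM. They share 186, 405 and 1849 bases with their partners. Psme1 (38.8 TPM), Psma4 (25.6 TPM) and Psmd3 (14.9 TPM) lay above it and share 14, 114 and 17 bases. Whether a partner's level bears on that of its proteasome gene was not tested.

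The short overlaps printed above belonged to the same kind of pair. Gm12356, a noncoding transcript opposite Psmd3, was at 1687 ± 142 TPM with 770, 687, 879 and 689 counts. It shares 17 of its 353 exonic bases with Psmd3 exons. Its whole body (98682921 to 98683415) lies within that of Psmd3 (98682554 to 98695979), so its other exonic bases lie opposite Psmd3 introns. The part of this arrangement in its counts was not tested. Emc9, which encodes a subunit of a membrane protein insertion complex, shares 14 of 2465 bases with Psme1 and had 756, 711, 600 and 597 counts (216 ± 48.0 TPM, SD, n = 4). AY074887, a protein-coding entry over the start of Psma4, was at 1079 ± 59.2 TPM with 994, 882, 1300 and 1069 counts. None of Gm12356, Emc9, AY074887 and Nek6 has an exon opposite any further gene. The sixth partner above its proteasome gene was the noncoding Gm26745, opposite Psmd9, with 8, 6, 11 and 3 counts.

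In the other pairs the proteasome gene was the higher or neither led. Psmc3ip, which is no proteasome subunit gene, exceeded Mlx, a transcription factor gene, by 2.77 ± 0.22. Both 3′ ends share 385 bases, and Mlx had 114, 78, 107 and 105 counts. Psmb9 exceeded Tap1 by 3.12 ± 0.17, with 21, 18, 24 and 17 counts for Tap1, and Psmc3 exceeded Slc39a13 by 2.66 ± 0.33, with 27, 28, 29 and 24 (log2(TPM + 1), SD, n = 4). Psma5 was above 1700010K24Rik, which had 3 counts in all. Psmd13 and Sirt3 differed by -0.02 ± 0.34, less than the spread between replicates, and Psmd1 and Htr2b by -0.50 ± 1.12. Where in a gene its reads lie is not in the deposited counts, so the part of the shared bases in any of these values was not tested.

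**Figure D3:**
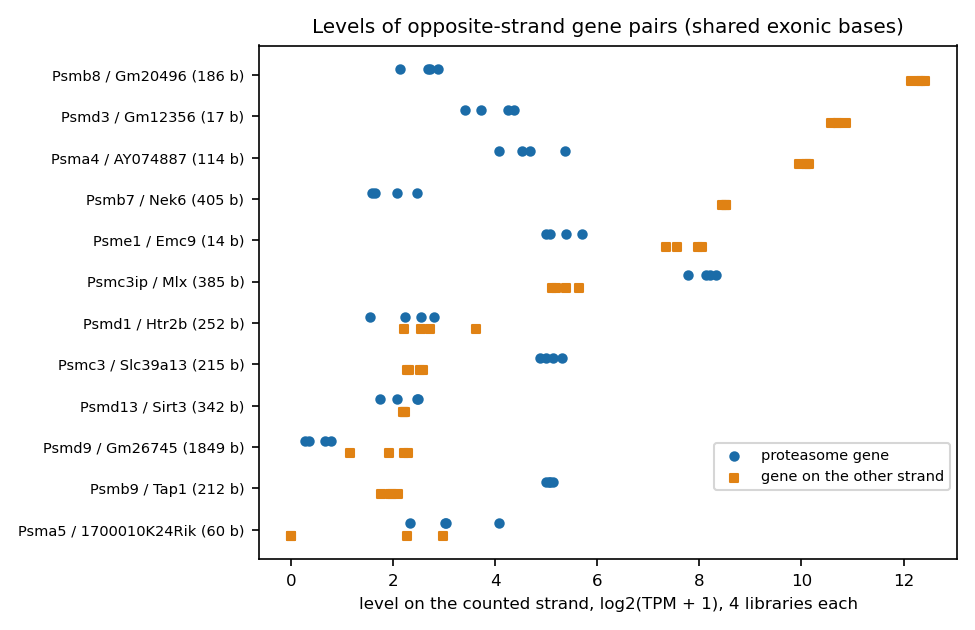
Levels on the counted strand (x axis, log2(TPM + 1)) of the 12 proteasome genes with an exon opposite and of the gene that shares most exonic bases with each, with 1 point per library and the shared bases in brackets. Gm20496, Gm12356, AY074887, Nek6 and Emc9 lie far to the right of their proteasome genes, and Mlx, Slc39a13 and Tap1 to the left.

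Across libraries, proteasome genes with no exon opposite were lowest in replicate 3 and highest in replicate 4. Their summed level was 548, 527, 416 and 723 CPM in replicates 1 to 4. All 16963 protein-coding genes with no exon opposite held 7.25, 6.79, 5.48 and 8.82% of the library totals, in the same order. As a share of these genes' counts the proteasome genes made up 0.757, 0.776, 0.758 and 0.819%, a mean of 0.777 ± 0.0292% (SD, n = 4). Replicate 3 held the lowest CPM for 22 of the 32 proteasome genes with counts in all libraries (68.8%), against 53.9% of 5355 such protein-coding genes. For the 12 genes with an exon opposite it was the lowest for 6, beside 45.5% of 3131 protein-coding genes with an exon opposite and counts in all libraries. The part of the smaller total share of these genes in the levels of replicate 3 was not tested.

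**Figure D4:**
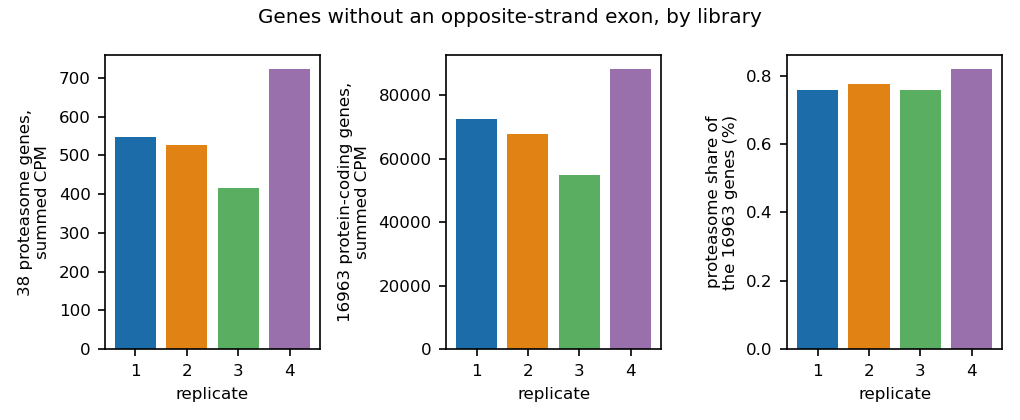
Summed CPM of the 38 proteasome genes with no exon opposite (left), of all 16963 protein-coding genes with no exon opposite (middle), and the share of the first in the counts of the second (right, percent), by replicate. Replicate 3 is lowest and replicate 4 highest in both sums (416 and 723 CPM on the left), while the share stays between 0.757 and 0.819%.

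Variation between replicates beyond what abundance predicts could be tested for only some proteasome genes. Of the 50 genes 28 passed the filter on low counts, and 0 of these 28 passed edgeR's quasi-likelihood test at an adjusted p under 0.05 (one-sided, Benjamini-Hochberg over all genes tested), where 22 of 4918 tested genes (0.447%) did. At an unadjusted p under 0.05 it was 1 of 28, against 5.71% of all tested genes, and DESeq2's dispersion outliers held 0 of the 28. The 1 was Psmb4, a core beta gene with 12, 26, 13 and 16 counts (edgeR adjusted p = 0.857). Next came Psma4 with an adjusted edgeR p of 0.892. Psmb9 had the largest edgeR p of the 28, 0.948 before and 0.999 after adjustment. With 0.447% of all tested genes passing, 0 of 28 is no result about the proteasome genes, and it does not show that they are constant.

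**Figure D5:**
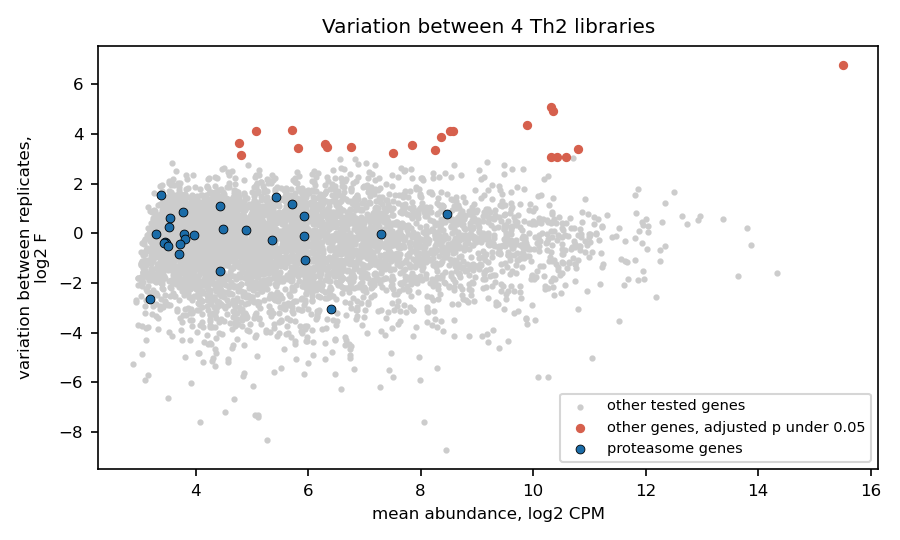
Variation between the 4 libraries (y axis, log2 of the F statistic of edgeR's quasi-dispersion over its trend) against mean abundance (x axis, log2 CPM) for the 4918 tested genes, with the 28 tested proteasome genes in blue and other genes that passed in red. The proteasome genes lie within the cloud of the other genes.

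Genes that work with the proteasome gave a like picture. Of 7 assembly and cap partners outside the symbol rule all had counts in every library, at a median of 2.58 ± 0.850 TPM (SD, n = 4), led by the deubiquitinase gene Uchl5 at 7.17 ± 2.03 TPM, and Pomp, which guides core assembly, was at 2.11 ± 0.744 TPM. The 6 regulators, Nfe2l1 and Nfe2l2 among them, also had counts throughout, at a median of 1.56 ± 0.743 TPM, with Nfe2l1 at 8, 5, 13 and 26 counts. Of the 11 ubiquitin supply and delivery genes, Ubb was at 15.6 ± 2.54 TPM and Uba1, the activating enzyme, at 7.74 ± 2.39 TPM (SD, n = 4). Rad23b, a shuttle that brings ubiquitinated proteins to the cap, had 22, 25, 24 and 39 counts and no exon opposite (3.79 ± 1.08 TPM, SD, n = 4). Of the 10 antigen presentation genes B2m was at 54.8 ± 24.9 and H2-K1 at 31.0 ± 9.88 TPM, and Tap1 and Tap2 were under 3 TPM. In these 4 lists 2, 0, 7 and 5 genes were tested for variation and 0 passed in edgeR, which, beside 0.447% of all tested genes, says nothing about these lists.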

How the data were processed

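The authors deposited 1 table of raw gene counts per library; featureCounts 1.4.6-p4 produced them on build mm10 and GENCODE release M13 with strand option 1, paired reads and exons grouped by gene, per the file headers; the counts are not normalised. Aligner settings are not given in the sources used here. Gene lengths, in bases, are those deposited beside the counts. Gene identifiers were given symbols and types from GENCODE M21 (99.6% of 50600 genes). Here TPM was computed from counts and lengths, and opposite-strand exon overlap (1 base or more) from the deposited exons with bedtools 2.31.1. The filter of the variation test asks for about 10 counts in every library. That test is the upper tail of edgeR 4.0.16's quasi-dispersion (intercept only, TMM, robust, 3 residual degrees of freedom), checked on simulated counts, with DESeq2 1.42.0 and R 4.3.3 as alternatives and tools. The sign-flip test enumerates 16 patterns (scipy 1.17.1). The log2(TPM + 1) scale understates differences of low genes.

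The members and lists were chosen with earlier results of these data known. Values per library were given for the 6 catalytic genes, members with an exon opposite and a mean count of 10 or more, the 3 highest others per class and members with few or no counts; Psmd14, Psmb11, Psmg2 to Psmg4, Psmb4 and the partners' further neighbours were named after their values were seen. The recorded command has no option to count multi-mapping reads, and 4 pseudogene entries of Psmb genes had 0 counts. Paaf1, of the assembly list, was not analysed here, and values of a few other list genes and neighbours are not reported here.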

Additional observations from a re-analysis of the deposited data

Results flagged for a closer look

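Psmd7 and Psmd2, both cap genes with no exon opposite, each had a library that stood apart. Replicate 4 was at 126 TPM for Psmd7 against 90.6, 89.4 and 91.2 TPM in replicates 1, 2 and 3, so that its gap to the next value made up 0.953 of the whole range. For Psmd2 it was at 30.7 TPM against 19.1, 16.8 and 18.9 TPM, a gap of 0.833 of the range. Of 69 sets of 4 values looked at, 2 exceeded Dixon's 95% critical value, and chance alone gives about 5%. Replicate 4 also had the highest share of counts in protein-coding genes with no exon opposite, 8.82%; the part of that share in these values was not tested.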

How the results depend on the processing

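In edgeR 0 proteasome genes passed the variation test under every alternative run, while the count over all genes, 22, was 2 with library totals only, 9 with a non-robust prior, 44 with a mean count of at least 10, 56 with no filter, and 11 to 21 with a replicate left out, 11 of them without replicate 4. The share of proteasome counts in genes with an exon opposite, 55.7%, was 46.4% with at least 100 shared bases, 50.15% with protein-coding partners only, 38.6% without Psmc3ip and 60.02% when introns counted as opposite, an alternative chosen after seeing the data, as were the M21 exons, which changed nothing; leaving out a replicate gave 54.95 to 56.96%. The median of genes with an exon opposite was 5.35, 28.4 and 5.78 TPM with 100 bases, protein-coding partners and introns, 49.25 TPM when scaled over protein-coding nuclear genes, and 9.68 to 12.9 TPM with a replicate left out. The median of the others was 22.6 TPM under that scaling, 7.41 TPM with a mean count of 10 or more, and 5.02 to 6.12 TPM with a replicate left out. Psmb8 minus Psmb5 ran from -0.21 to 0.58, Psmb9 minus Psmb6 from 1.99 to 2.73 and Psmb10 minus Psmb7 from 0.51 to 0.85 with a replicate left out; on log2(CPM + 1), which leaves out length, they were 1.60, 3.45 and -0.18. The tests of the 3 gene pairs used differences within each library, but samples could not be paired between groups because the series has 1 group. Most members have under 50 counts a library, which limits every ratio between single genes.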

Other observations

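Introns give a further arrangement. With no exon opposite, 6 proteasome genes (Psma3, Psma6, Psmb10, Psmd5, Psmd14 and Psme4) overlap the body of a gene on the other strand. Psmb10, the immunoproteasome gene, overlaps the body of Gm16156, annotated as antisense, which had 363, 310, 429 and 367 counts in replicates 1 to 4 (404 ± 24.2 TPM, SD, n = 4). Opposite Psma3, 3110056K07Rik had 5, 9, 27 and 29 counts, and opposite Psmd5, Cutal had 1, 0, 1 and 0. Some neighbours lie close by without overlap, such as the chaperone gene Dnajc2, 32 bases from Psmc2 with a mean of 108 counts. The erythroid list had Hbb-bs at 0 and Alas2, which shares 372 exonic bases with Apex2, at 8.72 ± 3.20 TPM (SD, n = 4).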
